A study of Mus musculus with 5 samples.

Results

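Matrix-degrading proteases and their inhibitors were examined in single-barcode RNA counts of aged mouse muscle. They comprised 3 matrix metalloproteinases (Mmp2, Mmp3 and Mmp14), 3 ADAMTS proteases (Adamts1, Adamts2 and Adamts5) and the 4 tissue inhibitors of metalloproteinases (Timp1, Timp2, Timp3 and Timp4). The rule named these 10 genes by symbol, and all 10 were found among the 55357 genes of the deposited tables. The tissue was tibialis anterior, a hind-limb muscle, of female C57BL/6 mice that were all 26 months old. Frail mice, which the labels call cases, had a frailty index of at least 0.18 and gave 2 libraries. Control mice lay under 0.18 and gave 3 libraries. Frailty in this design was graded by score, and no transgene or drug was named for either group. The labels describe both an enzymatic digestion to whole cells and a lysis with sorting of nuclei, so the text speaks of barcodes.

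Matrix metalloproteinases are zinc enzymes that cut collagens, proteoglycans and other proteins outside the cell. Most are made as inactive precursors, and the membrane protease encoded by Mmp14 can activate the gelatinase made from Mmp2 with the help of the Timp2 protein. ADAMTS proteases cut proteoglycans such as versican and aggrecan or trim procollagen, and the TIMP proteins block both enzyme families to differing degrees. In muscle, connective tissue between the fibres is kept largely by fibro-adipogenic progenitors, stromal cells that carry Pdgfra.

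Unique molecular identifier (UMI) totals were 68170531 to 90942121 per library, and 8650 to 12088 barcodes per library passed the filters of at least 200 genes and at most 10% mitochondrial UMIs. The mitochondrial limit removed 17.2% of barcodes in frail 1 and 7.49% to 11.2% in the other libraries, and any pair of libraries shared at most 49 barcode sequences. Levels are in CPM, the usual count scale on which a gene's UMIs are divided by all UMIs of the same set of barcodes. Myofibre transcripts, summed over 7 markers, reached 84.3 and 556 CPM in frail 1 and 2 and 5074, 10069 and 2393 in control 1, 2 and 3, so the main cell of the tissue was represented unevenly. Keratins summed over 4 markers reached 1612 CPM in control 3 and at most 0.181 in the other 4 libraries. Values are listed below in the order frail 1, frail 2, control 1, control 2, control 3.

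Lineages were taken from 6 gates, each holding barcodes with at least 1 UMI of its gene and 0 of the other 5: Pdgfra (stroma), Cdh5 (endothelium), Rgs5 (mural cells of vessels), C1qa (macrophages), Pax7 (satellite cells, the stem cells of muscle) and Tnmd (tendon cells). The Pdgfra gate held 1146 to 2320 barcodes per library, Cdh5 933 to 2397, Rgs5 541 to 924, C1qa 174 to 435, Pax7 45 to 139 and Tnmd 148 to 504. Between 40.5% and 51.8% of retained barcodes carried UMIs of 2 or more gate genes and fell in no gate, and they held a median of 52.3% (Mmp3) to 67.8% (Timp4) of each gene's UMIs. Comparisons of members between lineages were therefore repeated with a second definition, chosen after the data were seen, in which the gate gene had at least 2 UMIs and at least 3 times those of the other gate genes together. This is called the dominant gate below. The gates were not pure. In the Tnmd gate mural markers summed to 5623 to 19940 and fibro-adipogenic markers to 12765 to 24592 CPM, beside 7320 to 18878 for tendon markers, so this gate is treated as mixed. Myofibre markers exceeded mural markers in the Rgs5 gate of control 2 (25116 against 11985) and control 3 (7134 against 7061), and macrophage markers in the C1qa gate of control 2 (24465 against 10240).

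Among the stromal proteases, Mmp2 encodes gelatinase A and lies on chromosome 8, 92827291 to 92853420 on the plus strand of GRCm38. Its level in the Pdgfra gate was 661, 707, 633, 518 and 649 CPM. In the Cdh5 gate it was 32.9, 31.1, 44.8, 36.1 and 60.7. Every Pdgfra value was above every endothelial value, and the Rgs5, C1qa and Pax7 gates were also low, between 37.8 and 114. The mixed Tnmd gate was higher than these gates. Stroma exceeded it by 0.56 on the log2 scale (SE 0.19, edgeR adjusted p = 0.0182). That difference did not pass with dominant gates (0.18, edgeR adjusted p = 0.349). Within libraries, Mmp2 was higher in the Pdgfra gate than in the Cdh5 gate by 3.97 on the log2 scale (SE 0.21, edgeR adjusted p = 5.83e-15). Differences of this kind were common between lineages: 62.2% of 14098 genes passed the same test, 28.5% of them as higher in the Pdgfra gate.

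Mmp14 (chromosome 14, 54431612 to 54445364, plus strand) encodes the membrane-anchored protease that activates the Mmp2 product. Its level in the Pdgfra gate was 277, 393, 200, 160 and 276 CPM, with 9.31 to 28.0 in the Cdh5 gate. Mural barcodes held an intermediate level of 105, 163, 75.9, 55.3 and 114. Mmp14 was higher in the Pdgfra gate than in the Cdh5 gate by 3.96 on the log2 scale (SE 0.24, edgeR adjusted p = 2.02e-13). Against the Rgs5 gate the difference was 1.45 (SE 0.21, edgeR adjusted p = 2.88e-06), in a comparison where 52.9% of genes passed, 24.1% as higher and 28.8% as lower in the Pdgfra gate.

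Mmp3 (chromosome 9, 7445822 to 7455975, plus strand) encodes stromelysin-1, a protease with many matrix substrates. Its level in the Pdgfra gate was 57.9, 36.4, 89.5, 128 and 79.1 CPM, and it was at most 8.40 in the Cdh5 gate. Few barcodes carried it: those with at least 5 Mmp3 UMIs made up 1.5% to 5.76% of the Pdgfra gate and held 65.5% to 84.8% of the gate's Mmp3 UMIs. In the Cdh5 gate at most 1 barcode per library reached that number. The share at 5 or more UMIs also depends on a gene's level. Adamts2 was nearer to Mmp3 in level, and 0.698% to 3.29% of Pdgfra barcodes reached that number, holding 5.19% to 21.9% of its UMIs. For the more abundant Mmp2, 30.4% to 51.3% of Pdgfra barcodes did, with 67.0% to 81.1% of its UMIs. Mmp3 was higher in the Pdgfra gate than in the Cdh5 gate by 4.24 on the log2 scale (SE 0.39, edgeR adjusted p = 1.12e-09). Against the mixed Tnmd gate the difference was 0.15 (SE 0.32, edgeR adjusted p = 0.765), so Mmp3 did not separate these gates.

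The upstream sequences are shown for Mmp3, Timp2 and Timp4, whose distribution over barcodes was narrow, stromal and endothelial in turn. RefSeq promoters on GRCm38.p6 were held for 8 of the 10 genes (not Mmp2 and Adamts5), and the 250 bases before each start were searched on both strands for TGANTCA (the core of AP-1 sites), GGGCGG (the GC box of Sp1 sites) and TATAAA (the TATA box). Capitals mark any match. The starts are those of RefSeq, and for some genes they differ from the gene positions given in this text. The Timp2 window lies inside the annotated gene, whose 5′ end on the minus strand is 118355740. That of Timp3 ends at 86300411, past the annotated gene start at 86300372. Which start is used in these barcodes was not tested.
Mmp3, chr9:7445572-7445821, plus strand: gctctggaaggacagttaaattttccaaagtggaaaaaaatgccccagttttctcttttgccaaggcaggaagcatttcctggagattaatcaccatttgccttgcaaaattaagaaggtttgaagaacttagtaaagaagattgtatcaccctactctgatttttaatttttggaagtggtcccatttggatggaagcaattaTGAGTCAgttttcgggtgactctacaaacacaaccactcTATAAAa
Timp2, chr11:118355412-118355661, minus strand: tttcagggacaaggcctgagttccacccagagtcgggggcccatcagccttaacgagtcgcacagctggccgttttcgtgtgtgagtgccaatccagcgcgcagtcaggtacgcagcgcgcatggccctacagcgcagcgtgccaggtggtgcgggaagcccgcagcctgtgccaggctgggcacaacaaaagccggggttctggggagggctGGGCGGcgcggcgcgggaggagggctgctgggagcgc
Timp4, chr6:115252206-115252455, minus strand: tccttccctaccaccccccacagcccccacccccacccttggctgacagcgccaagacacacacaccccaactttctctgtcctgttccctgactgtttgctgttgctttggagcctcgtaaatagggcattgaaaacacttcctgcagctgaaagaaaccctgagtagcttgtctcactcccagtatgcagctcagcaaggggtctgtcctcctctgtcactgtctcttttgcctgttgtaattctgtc
Mmp3 held 1 match to TGANTCA, at −46 to −40 counted from −1, the base before the start. Its 1 match to TATAAA lay at −7 to −2, next to that start, and 37.6% of its 250 bases were G or C. Timp2 held 1 GGGCGG and 68% G or C. Timp4 held none of the 3 motifs and 53.6% G or C. The same windows of Mmp14, Adamts1, Adamts2, Timp1 and Timp3 held 2, 3, 5, 1 and 1 GGGCGG matches, counting both strands. That of Adamts1 also held 1 TATAAA, at −32 to −27. Over all 32851 promoters, 6.75% held TGANTCA, 32.7% GGGCGG and 12.4% TATAAA. A match describes letters in the window, and binding was not measured.

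Adamts5 and Adamts1 are neighbours on the minus strand of chromosome 16, at 85856173 to 85901828 and 85793827 to 85803113, with 53059 bases between them. Both encode proteases that cut proteoglycans, and Adamts5 is known as an aggrecanase. Adamts5 was stromal, with 655, 1046, 864, 879 and 816 CPM in the Pdgfra gate and 40.5 to 116 in the Cdh5 gate. The Pax7 gate held 267, 160, 218, 311 and 210, which overlapped with 141 to 227 in the Tnmd gate. Adamts5 was higher in the Pdgfra gate than in the Pax7 gate by 1.78 on the log2 scale (SE 0.28, edgeR adjusted p = 1.50e-05). In that comparison 40.3% of genes passed and 22.4% were higher in the Pdgfra gate. The difference from the Cdh5 gate was 3.49 (SE 0.29, edgeR adjusted p = 1.32e-10).

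Adamts1 had the opposite order from its neighbour. Its level in the Cdh5 gate was 631, 410, 609, 452 and 462 CPM, and in the Pdgfra gate 297, 198, 296, 277 and 354. Every endothelial value was above every stromal value. The difference, stroma over endothelium, was −0.88 on the log2 scale (SE 0.13, edgeR adjusted p = 1.61e-06), and 33.7% of genes were lower in the Pdgfra gate by this test. Mural barcodes held 378, 288, 485, 375 and 339, and the difference between stroma and mural barcodes did not hold without most single libraries: −0.33 (SE 0.13, edgeR adjusted p = 0.0353) became −0.29, −0.30, −0.18 and −0.27 without frail 1, frail 2, control 1 or control 2, with edgeR adjusted p of 0.129, 0.0754, 0.345 and 0.178.

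Adamts2 (chromosome 11, 50602084 to 50807573, plus strand) encodes a protease that trims the amino end of fibrillar procollagens. It held 127, 119, 121, 98.6 and 139 CPM in the Pdgfra gate. The Cdh5 gate held 4.42 to 11.2 and the Rgs5 gate 17.6 to 29.1. The differences were 3.86 (SE 0.21, edgeR adjusted p = 1.40e-14) and 2.40 (SE 0.20, edgeR adjusted p = 1.80e-10) on the log2 scale. It overlaps 3 non-coding genes annotated on the other strand, and their reads were not examined.

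**Figure D1:**
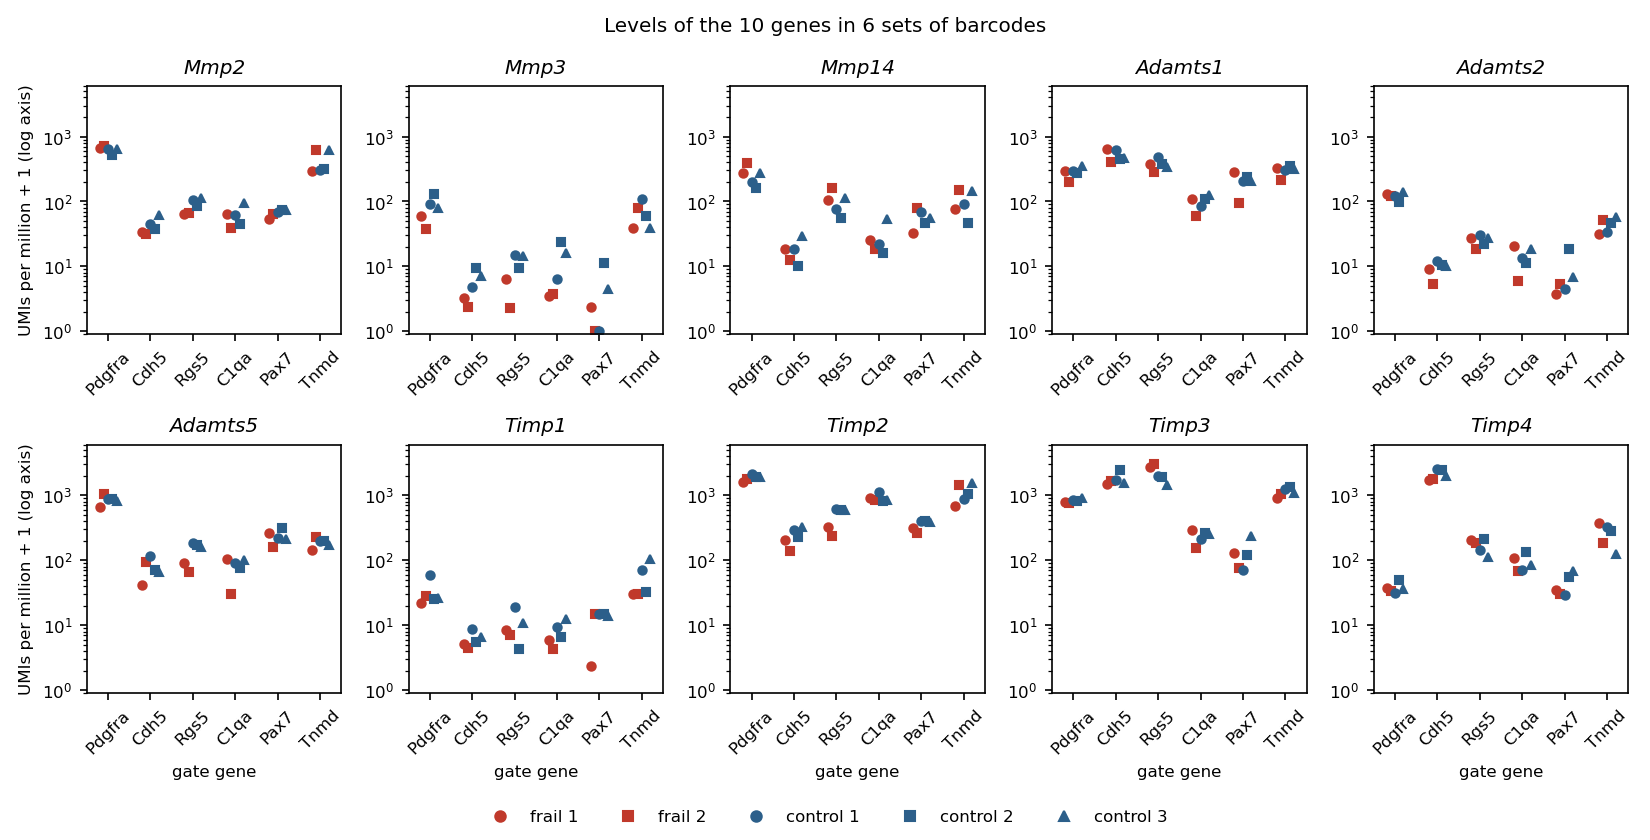
Level of each gene in the 6 gates, 1 point per library, as CPM plus 1 on a log axis; red marks the 2 frail and blue the 3 control libraries. Mmp2, Mmp14, Adamts2 and Adamts5 peak in the Pdgfra gate and Timp4 in the Cdh5 gate, where it lies between 1713 and 2531 CPM. Mmp2 is also high in the Tnmd gate, whose Fmod part, not drawn here, lies above the Pdgfra gate in each library.

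The inhibitors divided among the lineages. Timp2 (chromosome 11, 118301069 to 118355740, minus strand), whose product both inhibits metalloproteinases and takes part in activation of the Mmp2 precursor, was highest in the Pdgfra gate, at 1579, 1810, 2144, 1932 and 1921 CPM. The mixed Tnmd gate held 678, 1426, 891, 1034 and 1544, below every stromal value, and the difference was 0.72 (SE 0.20, edgeR adjusted p = 0.00578), which did not pass with dominant gates (0.35, SE 0.16, edgeR adjusted p = 0.0859). Macrophage barcodes of the C1qa gate held 897, 834, 1129, 827 and 860. No stromal value lay among the macrophage values, and the difference between stroma and macrophages was 0.90 on the log2 scale (SE 0.20, edgeR adjusted p = 0.00049), against 58.0% of genes that passed and 25.1% higher in the Pdgfra gate. Satellite-cell barcodes held 261 to 409, and the difference was 2.32 (SE 0.22, edgeR adjusted p = 2.31e-09). Endothelial barcodes held 139 to 322, and the difference was 3.01 (SE 0.22, edgeR adjusted p = 3.76e-12).

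Timp4 (chromosome 6, 115241892 to 115252205, minus strand) was the endothelial inhibitor. The Cdh5 gate held 1713, 1807, 2531, 2437 and 1982 CPM, and the Pdgfra gate 35.9, 33.1, 30.0, 47.9 and 35.6. The difference, stroma over endothelium, was −5.87 on the log2 scale (SE 0.26, edgeR adjusted p = 1.12e-16), the largest in size of the 10 genes. Mural barcodes held 110 to 215 in the gate without other gate genes. They held 827, 646, 1067, 1427 and 993 in the dominant Rgs5 gate, which admits barcodes that also carry a little Cdh5. Stroma over mural barcodes was −2.14 (SE 0.22, edgeR adjusted p = 7.13e-09) in the first and −4.58 (SE 0.22, edgeR adjusted p = 1.24e-15) in the second, so the mural level of Timp4 depended on the definition while its direction did not.

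Timp3 (chromosome 10, 86300372 to 86349506, plus strand) encodes the inhibitor that binds to the matrix and also acts on ADAMTS proteases. It was highest in mural barcodes, at 2705, 3052, 1988, 1909 and 1435 CPM, followed by endothelial barcodes at 1521, 1691, 1710, 2414 and 1538, and these ranges overlapped. The Pdgfra gate held 779, 760, 841, 812 and 911. Stroma was lower than mural barcodes by this test, at −1.38 on the log2 scale (SE 0.23, edgeR adjusted p = 1.38e-05), and lower than endothelium, at −1.13 (SE 0.23, edgeR adjusted p = 0.000118). Macrophage barcodes held only 153 to 296, and stroma exceeded them by 1.68 (SE 0.23, edgeR adjusted p = 8.02e-07).

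Timp1 (chromosome X, 20870166 to 20874735, plus strand), an inhibitor known to be induced by injury and inflammation, was scarce. The Pdgfra gate held 21.2, 27.5, 58.6, 24.5 and 25.0 CPM and the Cdh5 gate 3.42 to 7.74. Stroma exceeded endothelium by 2.59 on the log2 scale (SE 0.26, edgeR adjusted p = 1.93e-09). The Tnmd gate held 29.4, 28.9, 70.1, 31.2 and 105. Split after the data were seen into barcodes with more Fmod (a tendon proteoglycan) than Myh11 (smooth-muscle myosin) UMIs and the reverse, it held 74.3, 42.4, 175, 38.7 and 133 in the Fmod part and 0.423, 0.0, 1.30, 23.6 and 3.41 in the Myh11 part. Those values rest on 634 and 20 UMIs of Timp1 in all, and every Fmod value was above every Myh11 value. In each library the Fmod value was also above that of the Pdgfra gate, which was not tested.

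The same split of the Tnmd gate separated other members. Mmp2 held 737, 914, 722, 560 and 771 CPM in the Fmod part and 9.94 to 44.4 in the Myh11 part. In each library its Fmod value was above its value in the Pdgfra gate, given earlier, and this difference was not tested. Timp2 held 1370 to 1982 and 205 to 300. Timp4 went the other way, with 40.2 to 67.6 in the Fmod part and 483 to 587 in the Myh11 part, and so did Adamts1, with 135 to 273 and 352 to 585. Adamts5 was low in both, at 84.8 to 205 and 179 to 297. For the undivided gate, stroma exceeded Tnmd barcodes for Adamts5 by 2.16 (SE 0.28, edgeR adjusted p = 5.50e-07), for Adamts2 by 1.46 (SE 0.20, edgeR adjusted p = 7.77e-07) and for Mmp14 by 1.4 (SE 0.22, edgeR adjusted p = 8.83e-06), and was lower for Timp4, at −2.83 (SE 0.23, edgeR adjusted p = 9.51e-11). In this comparison 40.8% of genes passed, 21.1% as higher and 19.6% as lower in the Pdgfra gate.

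In all, 10 of 10 genes differed between the Pdgfra and Cdh5 gates, 7 higher and 3 lower in stroma (Adamts1, Timp3 and Timp4), where 62.2% of all genes differed. Against the Rgs5 gate 7 were higher and 3 lower (52.9% of all genes called), against the C1qa gate 9 higher and 1 lower, Timp4 (58.0%), against the Pax7 gate 9 higher and 0 lower (40.3%), and against the Tnmd gate 5 higher and 2 lower, Timp1 and Timp4 (40.8%). With dominant gates the counts of members against the Cdh5, Rgs5 and C1qa gates stayed at these numbers, while 8 were higher than in the Pax7 gate (Timp1 did not pass, 0.81, edgeR adjusted p = 0.113) and 3 higher and 3 lower than in the Tnmd gate. The percentages above belong to the first definition of the gates, so the dominant counts are not set against all genes. Against Tnmd barcodes Mmp2 was higher by 0.56 (SE 0.19, edgeR adjusted p = 0.0182), but not past the threshold without frail 1, control 1 or control 2 (edgeR adjusted p = 0.0899, 0.0678 and 0.0509), with at least 2 UMIs of the gate gene (0.41, edgeR adjusted p = 0.0698) or with dominant gates (0.18, edgeR adjusted p = 0.349). The Timp1 difference there, −0.73 (SE 0.23, edgeR adjusted p = 0.0121), was −0.31 without control 3 (edgeR adjusted p = 0.215), and Timp3, at −0.49 (edgeR adjusted p = 0.0842), passed without control 3 (−0.53, edgeR adjusted p = 0.0208) and with dominant gates (−0.52, edgeR adjusted p = 0.000896). The Adamts1 difference from the Pax7 gate, 0.42 (SE 0.14, edgeR adjusted p = 0.0164), did not pass without frail 2 or control 3 (edgeR adjusted p = 0.0976 and 0.0664). For the Cdh5 gate, the dominant gate gave the same directions for all 10, between 4.84 for Mmp3 and −5.93 for Timp4. Timp1, Timp3 and Timp4 each lie inside or across a synapsin gene on the other strand (Syn1, Syn3 and Syn2). Over all retained barcodes these hosts held 0.518 to 1.21, 12.6 to 30.5 and 6.13 to 12.9 CPM, beside 13.8 to 38.3, 1062 to 1633 and 448 to 939 for Timp1, Timp3 and Timp4. The counting used by the authors is not stated to use strand in the sources used here. Timp2 overlaps the protein-coding gene Cep295nl on the same strand, and the reads of that gene were not examined.

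Stroma was not uniform. Barcodes of the Pdgfra gate were divided by Pi16, which marks a perivascular and fascial fibroblast state, Smoc2, which marks stroma between the fibres, and Gdf10, each with 0 UMIs of the other 2. The Pi16 subset held 139 to 220 barcodes per library, the Smoc2 subset 234 to 619 and the Gdf10 subset 6 to 13. Barcodes of the gate with UMIs of 2 or more of these genes fell in no subset. They held a median of 21.3% of all Timp2 UMIs, beside 30.2% for the whole Pdgfra gate. For Mmp2 they held 21.8%, beside 35.6%. Subsets were compared within libraries by edgeR's quasi-likelihood test, with the library as a block. Between the Pi16 and Smoc2 subsets 36.3% of 9902 genes passed, 17.5% as higher and 18.9% as lower in Pi16. Of the 10 members, 4 were higher and 2 lower in Pi16 barcodes, and 4 did not pass.

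Timp2 had the smallest adjusted p of the members between these subsets. The Pi16 subset held 3292, 3068, 3684, 3489 and 4121 CPM and the Smoc2 subset 955, 1276, 987, 1208 and 1158. Every Pi16 value was above every Smoc2 value. The difference was 1.76 on the log2 scale (SE 0.13, edgeR adjusted p = 1.51e-40). The level in the Pi16 subset was thus higher by a factor of 3.38.

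Adamts5 and Timp3 were also higher in the Pi16 subset. Adamts5 held 1023, 1346, 1159, 1282 and 979 CPM in Pi16 barcodes and 553, 892, 609, 686 and 778 in Smoc2 barcodes, higher in each of the 5 libraries (log2 difference 0.82, SE 0.12, edgeR adjusted p = 3.19e-10). Timp3 held 1000, 890, 1132, 1204 and 1518 against 715, 737, 608, 640 and 713, and the groups did not overlap (log2 difference 0.83, SE 0.12, edgeR adjusted p = 2.21e-10). Adamts2 followed with 0.59 (SE 0.12, edgeR adjusted p = 6.27e-06) and was higher in 4 of the 5 libraries.

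Mmp2 and Mmp3 ran the other way. Mmp2 held 540, 512, 546, 501 and 549 CPM in the Pi16 subset and 831, 857, 762, 565 and 753 in the Smoc2 subset, with no overlap. The difference was −0.40 on the log2 scale (SE 0.12, edgeR adjusted p = 0.0040), and it lost its call without frail 2 (−0.33, edgeR adjusted p = 0.0558). Mmp3 held 5.75, 0.851, 1.81, 95.2 and 16.3 in Pi16 barcodes and 47.9, 52.0, 148, 121 and 76.3 in Smoc2 barcodes, lower in each library but with control 2 high in both. Its difference of −2.28 (SE 0.68, edgeR adjusted p = 0.0297) did not pass without frail 1, frail 2, control 1 or control 3 (edgeR adjusted p = 0.0981, 0.0978, 0.105 and 0.0916).

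The remaining proteases did not separate the subsets. For Mmp14 the difference was −0.01 on the log2 scale (SE 0.12, edgeR adjusted p = 0.966), with 285, 386, 200, 173 and 329 CPM in Pi16 barcodes and 316, 438, 262, 167 and 294 in Smoc2 barcodes. For Adamts1 it was 0.25 (SE 0.12, edgeR adjusted p = 0.0906), and it passed without control 1 (0.40, edgeR adjusted p = 0.0155) and with dominant subsets (0.44, edgeR adjusted p = 1.83e-05). With dominant subsets Timp2 differed by 1.60, Adamts5 by 0.81, Timp3 by 0.80, Adamts2 by 0.61, Mmp2 by −0.38 and Mmp3 by −1.49, all past the threshold. Other markers also moved: the 7 fibro-adipogenic markers summed to 26968 to 40442 CPM in the Pi16 subset and 43537 to 55210 in the Smoc2 subset, and Pi16 barcodes were deeper, with median UMIs of 8240 to 9794 against 6435 to 7238. Their part in the differences was not tested.

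**Figure D2:**
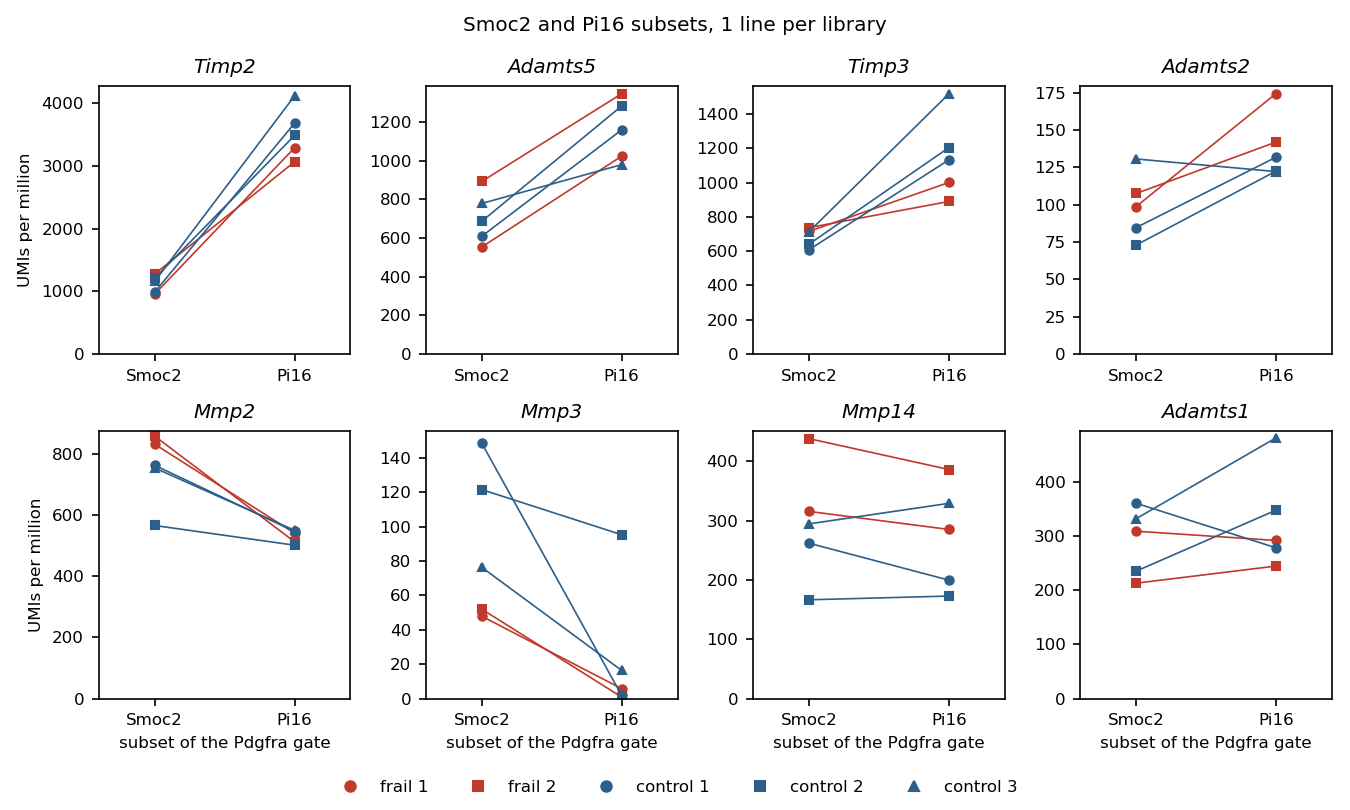
Level of 8 genes in the Smoc2 and Pi16 subsets of the Pdgfra gate, in CPM, with 1 line per library (red frail, blue control). All 5 lines rise for Timp2, Adamts5 and Timp3 and fall for Mmp2 and Mmp3, and they run in both directions for Mmp14 and Adamts1.

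The Gdf10 subset was too small for firm statements, with 44 barcodes in all. Adamts5 held 262, 98.2, 63.5, 229 and 382 CPM there, 46 UMIs in all, below every value of the other subsets. The difference from the Smoc2 subset was −1.86 on the log2 scale (SE 0.21, edgeR adjusted p = 1.23e-15) and that of Pi16 over Gdf10 was 2.69 (SE 0.21, edgeR adjusted p = 3.99e-36). Mmp14 was −1.13 against Smoc2 (SE 0.25, edgeR adjusted p = 0.000355) and 1.12 for Pi16 over Gdf10 (SE 0.25, edgeR adjusted p = 0.00018). Timp2 was 2.20 for Pi16 over Gdf10 (SE 0.16, edgeR adjusted p = 3.37e-42) and −0.44 for Gdf10 over Smoc2 (SE 0.16, edgeR adjusted p = 0.0645). That last value passed without frail 1 (−0.52, edgeR adjusted p = 0.0305), with no filter on low counts (−0.59, edgeR adjusted p = 0.0044), with the highest Scrublet scores removed (−0.49, edgeR adjusted p = 0.0408) and with at least 2 UMIs of the marker (−0.63, edgeR adjusted p = 0.0136), and it was −0.02 with dominant subsets (edgeR adjusted p = 0.921). The median gene was itself shifted in these fits, by −0.45 for Gdf10 over Smoc2 and 0.44 for Pi16 over Gdf10, and by −0.12 and 0.08 with DESeq2's size factors. Calls were 98 higher (0.99%) and 566 lower (5.72%) of 9902 genes for Gdf10 over Smoc2, 6.71% in all, and 1011 higher (10.2%) and 270 lower (2.73%) for Pi16 over Gdf10, 12.9% in all. With DESeq2's size factors they were 226 and 199, and 426 and 391. On simulated counts of this size, 48 unchanged genes were called beside 15 of 100 genes changed 2-fold and 53 of 100 changed 4-fold, more than the adjusted threshold of 0.05 allows.

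Genes whose levels followed each member most closely were read from 40 points, the 8 sets without shared barcodes in 5 libraries, among 9042 genes. The points share libraries and the correlations describe these sets, with no test. Mmp2 was followed by C1ra, Dcn and Serpinf1 (Pearson r 0.942, 0.940 and 0.938), Mmp14 by Col5a2, Rarres2 and Lama2 (0.906, 0.904 and 0.899) and Mmp3 by Vit, Cpxm1 and Ccbe1 (0.806, 0.788 and 0.769). Adamts2 was followed by Islr, Oaf and Reck (0.909, 0.902 and 0.887), Adamts5 by Loxl1, Fndc1 and Tnxb (0.894, 0.871 and 0.851) and Adamts1 by Fermt2, Nckap1 and Arid5b (0.771, 0.768 and 0.761). Timp2 was followed by Axl, Ptgs2 and Fndc1 (0.875, 0.869 and 0.867), Timp3 by Apbb2, Dlc1 and Cavin1 (0.903, 0.834 and 0.829), Timp4 by Cav1, Depp1 and Pkp4 (0.883, 0.869 and 0.868) and Timp1 by Evc, Tmem184c and Cys1 (0.814, 0.788 and 0.761). Dcn is a stromal marker and Cav1 is rich in endothelium, and Reck is itself an inhibitor of metalloproteinases.

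The study's own comparison, frail against control, was tested over libraries, 2 against 3, with edgeR. No member passed in any of the 7 sets of barcodes. Over all retained barcodes 0 of 19989 genes passed (0.0%), 1119 had an unadjusted p under 0.05 and DESeq2 called 288 (1.44%), none of them a member. Levels in this comparison are scaled CPM, that is CPM divided by TMM factors, which correct for differences in composition. In sums over all barcodes, fewer barcodes of a kind and less RNA per barcode cannot be told apart.

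Mmp3 had 30.7 and 19.1 scaled CPM in the frail libraries and 40.5, 63.6 and 44.4 in the controls. Both frail values lay below all controls, as for 10.5% of genes. The log2 difference was −0.99 (SE 0.28, edgeR adjusted p = 0.652). Timp2 had 876 and 908 against 1233, 1059 and 1235, again without overlap, with a log2 difference of −0.40 (SE 0.18, edgeR adjusted p = 0.924). These were the only members without overlap, 2 of 10 below and 0 above, where 9.48% of all genes lay above.

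The other proteases overlapped between groups over all barcodes. Mmp2 had 319 and 319 against 300, 239 and 406 (log2 difference 0.02, SE 0.25). Mmp14 had 137 and 178 against 103, 80.4 and 170 (0.42, SE 0.33). Adamts1, Adamts2 and Adamts5 differed by −0.07, −0.10 and −0.17 (SE 0.22, 0.22 and 0.21). The inhibitors Timp1, Timp3 and Timp4 differed by −0.76, −0.13 and −0.12 (SE 0.36, 0.25 and 0.35). The edgeR adjusted p of these 8 genes was at least 0.932. The members' median difference was −0.12 and that of all tested genes 0.00175.

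Within the Pdgfra gate, 3 of 14985 genes passed (0.02%) and DESeq2 called 86 (0.574%), again with no member. Mmp3 had 59.1 and 35.2 scaled CPM in frail stroma against 92.1, 133 and 75.6 (log2 difference −1.09, SE 0.30, edgeR adjusted p = 0.629), and it passed only with no filter on low counts (edgeR adjusted p = 2.30e-05). Mmp14 had 282 and 380 against 206, 166 and 264 (0.64, SE 0.24, edgeR adjusted p = 0.849), with both frail libraries above all controls. Timp2 had 1611 and 1751 against 2207, 2011 and 1836 (−0.26, SE 0.22, edgeR adjusted p = 0.994), with both below. In all, 3 members lay below without overlap (Mmp3, Timp2 and Timp3) and 2 above (Mmp2 and Mmp14), where 9.68% and 9.43% of genes did.

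The frail and control values of the others in stroma were close. Mmp2 had 674 and 683 against 652, 539 and 620 (log2 difference 0.17, SE 0.20), and Timp3 had 795 and 735 against 866, 845 and 870 (−0.17, SE 0.20). Adamts5 had 668 and 1012 against 889, 915 and 780 (−0.04, SE 0.24), and Adamts2 differed by 0.04 (SE 0.18). Adamts1, Timp1 and Timp4 differed by −0.33, −0.60 and −0.15 (SE 0.23, 0.44 and 0.22), and in Timp1 the control 1 library stood apart at 60.4 against 21.6 to 26.6 in the other 4. The members' median in stroma was −0.16 and that of all tested genes −0.00125. Myofibre markers in this gate summed to 32.9 and 161 CPM in the frail gates against 877, 2286 and 1064 in the others, and their part in these values was not tested.

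**Figure D3:**
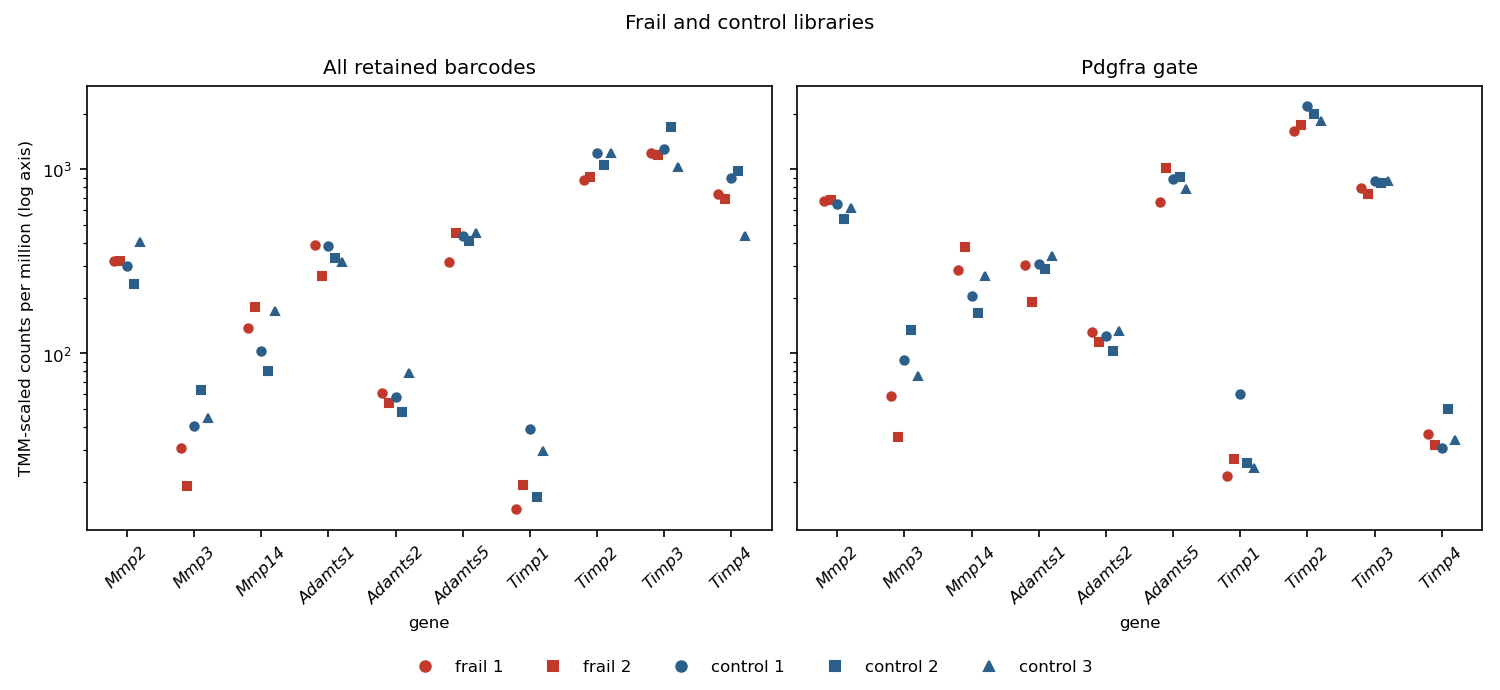
TMM-scaled CPM of the 10 genes on a log axis, over all retained barcodes and in the Pdgfra gate, 1 point per library (red frail, blue control). Frail Mmp3 and Timp2 points lie below all control points in both panels, and Mmp14 points overlap on the left (137 and 178 against 80.4 to 170) but not on the right.

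In endothelial barcodes 23 of 13665 genes passed (0.168%), all lower in frail libraries, and none was a member. DESeq2 called 151 (1.11%). Timp4, abundant there, had 1799 and 1740 scaled CPM against 2560, 2513 and 1922 (log2 difference −0.40, SE 0.23, edgeR adjusted p = 1.00). Timp3 overlapped, at 1597 and 1628 against 1729, 2490 and 1492 (−0.24, SE 0.27). Timp2 had 214 and 134 against 290, 235 and 312 (−0.68, SE 0.26, edgeR adjusted p = 0.823), Mmp2 34.6 and 29.9 against 45.3, 37.2 and 58.8 (−0.55, SE 0.23, edgeR adjusted p = 0.923) and Mmp3 2.34 and 1.35 against 3.84, 8.66 and 5.98 (−1.73, SE 0.50, edgeR adjusted p = 0.486). The Timp2 value was −1.06 without frail 1 and −0.38 without frail 2. In all, 6 members lay below without overlap, and 0 above, where 9.19% and 8.15% of genes did. Stromal markers were also lower in frail libraries: the 7 fibro-adipogenic markers summed to 1921 and 1783 CPM in the frail and 2580, 2566 and 3060 in the control Cdh5 gates. Their part in these differences was not tested. In the dominant Cdh5 gate the differences of Timp2 and Mmp2 were −0.22 (SE 0.26) and −0.09 (SE 0.26), and that of Timp4 was −0.53 (SE 0.25).

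In mural barcodes Mmp3, Timp2 and Adamts5 differed by more than 1 on the log2 scale without passing in edgeR. Mmp3, scarce there, had 5.49 and 1.20 scaled CPM against 14.7, 8.85 and 13.6 (log2 difference −1.84, SE 0.59, edgeR adjusted p = 0.401). It was −3.32 without frail 1, −1.16 without frail 2 and −0.49 in the dominant gate (SE 0.84). Timp2 had 328 and 223 scaled CPM against 628, 627 and 606 (log2 difference −1.17, SE 0.26, edgeR adjusted p = 0.223, DESeq2 adjusted p = 0.00115). Adamts5 had 92.7 and 61.3 against 189, 184 and 164 (−1.21, SE 0.25, edgeR adjusted p = 0.184, DESeq2 adjusted p = 0.00294), and it passed with at least 2 UMIs of Rgs5 (−1.96, edgeR adjusted p = 0.0363). Mmp2 had 64.2 and 62.1 against 109, 90.3 and 116 (−0.73, SE 0.21, edgeR adjusted p = 0.334; −0.25, SE 0.36, in the dominant gate), and Mmp14 overlapped (0.62, SE 0.32, edgeR adjusted p = 0.640). Timp3 ran the other way, at 2772 and 2851 against 2056, 2016 and 1460 (0.61, SE 0.25, edgeR adjusted p = 0.545). By edgeR 0 of 12619 genes passed (0.0%), 1115 had an unadjusted p under 0.05 and DESeq2 called 244 (1.93%). In all, 4 members lay below without overlap and 1 above, where 13.6% and 12.3% of genes did.

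The make-up of the Rgs5 gate also varied between libraries. Myofibre markers summed to 186 and 324 CPM in the frail and 15094, 25116 and 7134 in the control Rgs5 gates, and fibro-adipogenic markers to 3905 and 3900 against 5277, 5745 and 5812. Mural markers summed to 16795 and 18428 against 18066, 11985 and 7061, and keratins reached 5393 in control 3. The part of this make-up in the mural differences was not tested. In the dominant Rgs5 gate Timp2 held 242, 204, 277, 246 and 454 CPM and Adamts5 74.9, 87.9, 95.7, 91.8 and 156, and the log2 differences were −0.56 (SE 0.28) and −0.52 (SE 0.25), each with an edgeR adjusted p of 1.00. Timp3 held 2891, 3249, 2638, 3478 and 2487 there (0.06, SE 0.24), and it was −0.05 where no limit was set on the other gate genes.

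**Figure D4:**
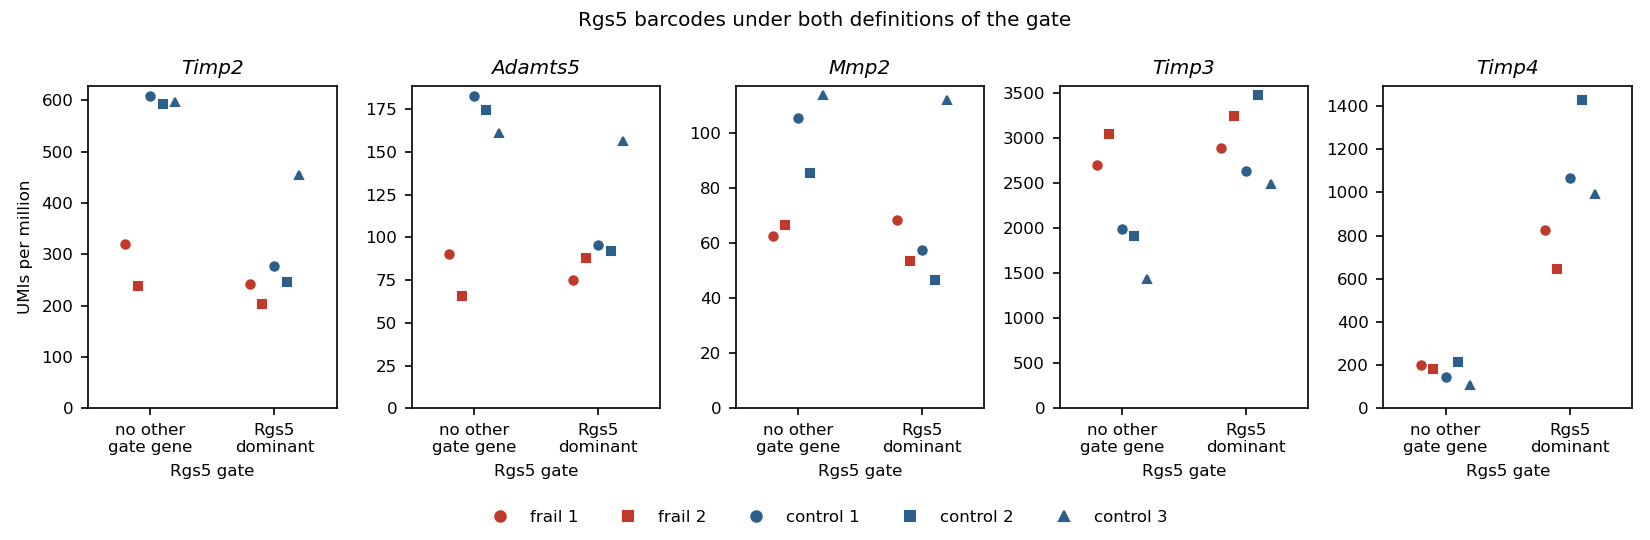
Level of 5 genes in Rgs5 barcodes, in CPM, with no UMI of another gate gene (left of each panel) and with Rgs5 dominant (right), 1 point per library (red frail, blue control). Frail and control Timp2 points are apart on the left (239 and 320 against 593 to 607), while the dominant gate brings control 1 and control 2 down to 277 and 246.

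In the smaller gates no member passed. Timp2 in macrophage barcodes had 937 and 819 scaled CPM against 1154, 871 and 832 (log2 difference −0.12, SE 0.23, edgeR adjusted p = 0.980). Mmp3 there had 2.61 and 2.69 against 5.44, 23.9 and 14.7 (−2.41, SE 0.75, edgeR adjusted p = 0.843), from 118 UMIs in all, and passed only with no filter on low counts (edgeR adjusted p = 0.00369). By edgeR 0 of 11641 genes passed in the C1qa gate (0.0%), with 677 at an unadjusted p under 0.05 and 52 by DESeq2 (0.447%). Timp2 in satellite-cell barcodes had 312 and 271 against 432, 434 and 388 (−0.52, SE 0.22, edgeR adjusted p = 0.835), and 18 of 7811 genes passed there (0.23%). Of the 8 members tested in the Pax7 gate, Mmp2 and Timp2 lay below without overlap and 0 above, where 9.65% and 10.3% of genes did. Timp1 in the Tnmd gate had 31.4 and 29.1 against 69.4, 31.3 and 105 (−1.19, SE 0.46, edgeR adjusted p = 1.00), overlapping with control 2, and 0 of 10415 genes passed (0.0%), with 196 at an unadjusted p under 0.05 and 20 by DESeq2 (0.192%). In the Tnmd gate 1 member (Timp3) lay below without overlap and 0 above, where 6.89% and 6.48% of genes did, and in the C1qa gate 2 (Timp1 and Mmp3) lay below and 0 above, where 11.2% and 10.6% did.

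The frail difference was compared between stroma and endothelium by limma, from the log2 difference between both gates within each library. For Mmp2 the stromal difference exceeded the endothelial one by 0.69 (SE 0.18, limma adjusted p = 0.502), for Mmp14 by 0.86 (SE 0.34, limma adjusted p = 0.827) and for Timp2 by 0.44 (SE 0.26, limma adjusted p = 0.998). None of 14157 genes passed (0.0%), and 775 had an unadjusted p under 0.05. With 1 library left out Mmp2 ran from 0.54 to 0.81, Mmp14 from 0.29 to 1.44 and Timp2 from 0.04 to 0.85, the last 2 lowest without frail 2 and highest without frail 1. With dominant gates the 3 values were 0.18, 0.17 and 0.05.

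Gate shares were compared by an exact two-sided permutation test over libraries, which cannot go below p = 0.1 with 10 splits. The Cdh5 gate held 19.6% ± 4.58 of retained barcodes in frail (SD, n = 2) and 11.5% ± 4.39 in control libraries (SD, n = 3), exact permutation p = 0.3. The Pdgfra gate held 17.5% ± 1.47 and 15.1% ± 3.83, exact permutation p = 0.5. The C1qa gate held 2.15% ± 0.405 and 3.94% ± 0.956 without overlap, exact permutation p = 0.1, the smallest value this design allows. The Pax7 gate ran the other way, at 1.28% ± 0.0350 and 0.722% ± 0.370, also without overlap (exact permutation p = 0.2). The Rgs5 and Tnmd gates gave exact permutation p of 0.4 and 0.6.

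Another 7 lists of related genes were set beside the members. None of their 76 genes tested over all barcodes and none of the 64 tested in stroma passed between frail and control libraries. Of the plasminogen system, which activates several metalloproteinases, Plau had 246 and 370 scaled CPM in frail and 125, 129 and 166 in control stroma (log2 difference 1.14, SE 0.23, edgeR adjusted p = 0.270). Of other ADAMTS genes, Adamts4, which encodes another aggrecanase, had 10.99 and 11.15 over all barcodes against 21.87, 20.94 and 20.15 (−0.92, SE 0.14, edgeR adjusted p = 0.413). In stroma it differed by −0.81 (SE 0.22), and Adamtsl5 by −0.60 (SE 0.17) there and −0.58 (SE 0.21) over all barcodes. Of other metalloproteinases, Mmp23 in stroma had 58.9 and 37.6 against 72.1, 72.1 and 58.4 (−0.48, SE 0.21, edgeR adjusted p = 0.962), so frail 1 overlapped with control 3. Mmp11 in stroma had 30.3 and 105 against 29.8, 30.2 and 16.2 (1.43, SE 0.59, edgeR adjusted p = 0.993), with frail 2 standing apart. Over all barcodes Mmp23 differed by −0.55 (SE 0.20), Mmp11 by 1.26 (SE 0.47) and Plau by 0.96 (SE 0.33). Serpinb2, a plasminogen activator inhibitor, had 19.7 in control 3 and at most 0.209 in the other 4 libraries, and Plat in stroma differed by −0.49 (SE 0.26). Among ADAM proteases the named differences were −0.60 for Adam8 (SE 0.33) and 0.39 for Adam23 (SE 0.33) over all barcodes, and −1.16 for Adam8 (SE 0.55) and −0.24 for Adam15 (SE 0.15) in stroma. Spock2, a matrix proteoglycan, differed by 0.81 (SE 0.33) and 0.47 (SE 0.20), and Cst3, which inhibits cathepsins, by 0.23 (SE 0.18) and 0.26 (SE 0.24) in the same order of sets. The cathepsins Ctsb and Ctss differed by −0.31 (SE 0.17) and −0.46 (SE 0.35) over all barcodes, and Ctsk and Ctsl by 0.31 (SE 0.17) and 0.24 (SE 0.22) in stroma. Among substrates Fn1 differed by −0.47 (SE 0.26) over all barcodes, Acan was at most 0.486 scaled CPM in any library, and the basement-membrane genes Nid2 and Nid1 differed by 0.39 (SE 0.23) and 0.22 (SE 0.21) in stroma. In both sets, the list medians lay between −0.09 and 0.18, beside 0.00175 and −0.00125 for all genes tested.

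Between the stromal subsets, where 36.3% of all 9902 genes passed, 17.5% as higher and 18.9% as lower in Pi16 barcodes, more genes of these lists passed than between frail and control libraries. Of 10 other ADAMTS genes tested, 4 were higher in Pi16 and 6 in Smoc2 barcodes, and the 4 were all ADAMTS-like genes, which lack the protease domain: Adamtsl4 (log2 difference 2.79, SE 0.14), Adamtsl3 (1.66, SE 0.13), Adamtsl5 (1.28, SE 0.15) and Adamtsl1 (0.49, SE 0.12). Lower ones included Adamtsl2 (−4.22, SE 0.35) and Adamts4 (−1.50, SE 0.23). Of 7 plasminogen genes, 4 were higher and 2 lower: Plat was higher by 1.63 (SE 0.12) and Plau was lower by this test (−1.62, SE 0.13), and both encode plasminogen activators. Of 4 other metalloproteinases, Mmp23 and Mmp27 were higher (1.54 and 2.51) and Mmp11 and Mmp19 lower (−0.98 and −0.72). Cst3 was lower (−2.26, SE 0.13). Among 9 substrates, 4 were higher and 2 lower in Pi16 barcodes. Fn1, Vcan, Eln and Nid1 were higher (3.58, 1.31, 0.83 and 0.37), and Nid2 and Dcn lower (−3.20 and −0.84). Each of these passed at an edgeR adjusted p under 0.05, and the list medians ran from −0.78 for other ADAMTS genes to 0.58 for ADAM proteases, beside −0.02 for all genes tested.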

How the data were processed

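RNA of tibialis anterior was counted in 5 libraries with the 10x 3′ V4 kit, per the labels' protocols. The deposited values are raw UMI counts per gene and barcode, which the authors made in Cell Ranger (version 7.0.0, per the file headers). GRCm38 and Seurat 4.1.2 are named in the submitters' processing notes, and the annotation the authors used is not given in the sources used here. Gene positions come from a GRCm38 annotation, which held 52081 of the 55357 gene identifiers (94.1%).

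Counts were summed per library over retained barcodes (at least 200 genes, at most 10% mitochondrial UMIs) and over gates and subsets. Doublets were left in, and removal of the highest Scrublet scores was an alternative. The tests of these sums used edgeR 4.0.16 (TMM factors, quasi-likelihood F, filterByExpr, Benjamini-Hochberg over all genes, threshold 0.05), with DESeq2 1.42.0 as an alternative, and the difference of effects with limma 3.58.1 (prior count 2), in R 4.3.3. An SE is the log2 difference divided by the root of F. The series text gives separate mice as the replicates. In counts simulated from these libraries, 7 of 100 genes changed 2-fold and 65 of 100 changed 4-fold were called between frail and control over all barcodes (19732 genes), and 38 and 78 of 100 in the Pdgfra gate (14719 genes). Beside them 15 and 18 unchanged genes were called in turn, more than the adjusted threshold of 0.05 allows. Intervals for counting error are not given, since levels rest on the spread between libraries.

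The members, gates and gene lists were chosen with earlier results of these data known. Named genes are all members, the 2 genes of each list with the smallest p where none passed between frail and control (all barcodes and stroma), examples of the list genes that passed between subsets, chosen after their values were seen, and for each member the 3 genes of highest Pearson correlation of log2(CPM + 1). The dominant gates and the division of the Tnmd gate were added after the data were seen. Other alternatives changed size factors, the filter on low counts, the mitochondrial limit, the gate, the replicate block and the libraries included.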

Additional observations from a re-analysis of the deposited data

Results flagged for a closer look

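The frail difference of Mmp2 had opposite signs in different gates, and in each of them frail and control libraries did not overlap. It was 0.1694 on the log2 scale in the Pdgfra gate (SE 0.20) and −0.73 in the Rgs5 gate (SE 0.21). In the Cdh5 and Pax7 gates it was −0.55 (SE 0.23) and −0.33 (SE 0.28). Of all genes, 9.43% lay above without overlap in the Pdgfra gate. Below without overlap lay 13.6% in the Rgs5, 9.19% in the Cdh5 and 9.65% in the Pax7 gate. Timp3 did the same, at 0.6086 in the Rgs5 gate (SE 0.25), −0.17 in the Pdgfra gate (SE 0.20) and −0.29 in the Tnmd gate (SE 0.27). Of all genes, 12.3% lay above without overlap in the Rgs5 gate, and 9.68% and 6.89% below in the Pdgfra and Tnmd gates. None of these member values passed in edgeR. Between stroma and endothelium the Mmp2 difference was tested and did not pass (0.69, limma adjusted p = 0.502). The other differences named here between gates were not tested. In dominant gates Mmp2 was 0.12 in Pdgfra (SE 0.19), −0.25 in Rgs5 (SE 0.36), −0.09 in Cdh5 (SE 0.26) and 0.094 in Pax7 barcodes (SE 0.29). Timp3 was 0.06 in Rgs5 (SE 0.24), −0.11 in Pdgfra (SE 0.19) and −0.23 in Tnmd barcodes (SE 0.23) with dominant gates. With no limit on the other gate genes Timp3 in Rgs5 barcodes was −0.05. Groups of 2 and 3 libraries are too small for a test of single outlying samples.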

How the results depend on the processing

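Counts of genes called between frail and control libraries depended on the processing. Over all barcodes the count of 0 became 288 with DESeq2 and 15 with no filter on low counts. In the Pdgfra gate 3 became 86 with DESeq2, 264 with no filter and 1 each with at least 2 UMIs of the gate gene, with no limit on the other gate genes and with the dominant gate. In the Cdh5 gate 23 became 151, 308, 0, 0 and 13 under the same settings in that order. In the Rgs5 gate 0 became 8 with DESeq2's size factors, 244 with DESeq2, 101 with no filter, 16 with the highest Scrublet scores removed and 10 with at least 2 UMIs. In the C1qa gate 0 became 52 with DESeq2 and 130 with no filter. In the Pax7 gate 18 became 103 with no filter, 9 with a mitochondrial limit of 5%, 5 with at least 2 UMIs, 4 with no limit on other gate genes and 4 with the dominant gate. In the Tnmd gate 0 became 20 with DESeq2, 61 with no filter and 1 with no limit on other gate genes, and the test between gates went from 0 to 1 in that last setting. Between subsets, 3595 became 5636 with dominant subsets for Pi16 over Smoc2, and DESeq2's size factors gave 817 for Pi16 over Gdf10 and 425 for Gdf10 over Smoc2. The causes were not tested.

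With 1 library left out, where a lone frail library is assumed to vary like the others, the counts ran from 1 to 8 in the Pdgfra gate (8 without control 2, 1 without either frail library), 5 to 37 in the Cdh5 gate (37 and 14 when frail 2 or frail 1 was dropped, 11 and 5 for control 1 or control 3), 0 to 96 in the Rgs5 gate (96 without control 3, 35 without control 2), 0 to 42 in the C1qa gate (42 without control 3), 7 to 60 in the Pax7 gate (60 and 57 without frail 1 and frail 2, 7 and 9 without control 2 and control 3) and 0 to 2 in the Tnmd gate (2 without control 3). Log2 differences near 0 changed sign in these fits: over all barcodes Mmp2 ran from −0.15 to 0.24, Adamts1 from −0.38 to 0.18, Adamts2 from −0.25 to 0.11, Adamts5 from −0.46 to 0.072, Timp3 from −0.29 to 0.074 and Timp4 from −0.40 to 0.089. In the Pdgfra gate Adamts2 ran from −0.073 to 0.13, Adamts5 from −0.36 to 0.23 and Timp4 from −0.28 to 0.070, in the Cdh5 gate Timp3 from −0.39 to 0.0016, in the C1qa gate Timp2 from −0.23 to 0.030, and for Pi16 over Smoc2 Mmp14 from −0.075 to 0.079 and Timp1 from −0.15 to 0.33, and for stroma over Tnmd barcodes Mmp3 from −0.018 to 0.54. The Tnmd share ran from −0.739 to 2.35 percentage points.

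With the replicate block, the counts were 366 over all barcodes, 101 (Pdgfra), 110 (Cdh5), 193 (Rgs5), 120 (C1qa), 9 (Pax7), 43 (Tnmd) and 29 for the test between gates. Same-numbered libraries share only a number, and their deviations correlated at −0.01 and 0.17. Of the members, Adamts2 over all barcodes changed sign with the block (0.11) and with the 5% mitochondrial limit (0.040), from −0.10, and Timp3 in the Rgs5 gate with no limit on other gate genes (−0.054). Mmp3 in stroma over Tnmd barcodes changed sign from 0.15 with at least 2 UMIs (−0.015) and with dominant gates (−0.43). Dominant gates or subsets also changed the sign of Mmp2 in the Pax7 gate (0.094, from −0.33), of Timp1 and Timp4 for Pi16 over Smoc2 (−0.44 and 0.055, from 0.059 and −0.20) and of Timp4 in stroma over Pax7 barcodes (0.028, from −0.40). Gate shares changed sign for Rgs5 with at least 2 UMIs (0.153 percentage points) and for Pdgfra (−2.11) and Tnmd (−0.039) with no limit on other gate genes. Over the frail comparisons, 5 of 936 member values under an alternative passed the threshold. Of the member values compared under alternatives, 1134 kept direction and side of the threshold, 23 lost and 14 gained a call and 31 changed sign. Depth limits Mmp3 and Timp1 outside the Pdgfra and Tnmd gates and all members in the Gdf10 subset.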
